A study of Mus musculus with 12 samples.

Results

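The genes described here encode the subunits of voltage-gated sodium and calcium channels. They were taken from the deposited table as the protein-coding genes whose symbols begin with Scn followed by a number and a or b, Cacna1, Cacna2d, Cacnb or Cacng, which gave 40 of 55862 genes, and 38 of these are described. The 40 were 10 sodium channel alpha genes, 4 sodium channel beta genes, 10 calcium channel alpha1 genes, 4 alpha2delta genes, 4 calcium channel beta genes and 8 gamma genes. The rule reads gene symbols only.

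RNA-seq libraries were analysed from 12 mouse samples, 3 in each of 4 groups. The strain is C57BL/6 in all labels, while the methods of the study give C57BL/6J for both NPC groups. AST samples were primary astrocytes from the cerebral cortex of mice at postnatal day 1 to 2, grown as monolayers in serum-supplemented medium and taken at day 0 of sphere culture. A-iSC samples were such astrocytes after 5 days of culture as spheres on an agarose surface. P56-NPC samples were cells dissociated from the subependymal zone at postnatal day 56, and P0-NPC samples were cells dissociated from the hippocampus at postnatal day 0. No agent or transgene was given to any group, and the study used ASTs as the negative and both NPC groups as the positive controls. The culture groups and the NPC groups therefore differed in age, brain region and preparation at once, and these cannot be told apart. The methods do not state how long the NPC samples were kept in medium before RNA was taken. A-iSC and AST differed both in sphere form and in 5 days of culture, with no monolayer at day 5. P56-NPC and P0-NPC differed both in age and in brain region. Within each of these comparisons the differences cannot be told apart either. Nothing in the labels says whether the samples of a group came from separate cultures or animals. The methods speak of 3 independent experiments in general, without naming the sequenced samples. Each p-value therefore measures only the spread between these samples, which may be technical.

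Levels are given in FPKM, fragments per kilobase of gene length after scaling to a library size set by the authors. The libraries held 17077780 to 24452419 fragments. The sizes behind the values were 0.941 to 0.985 times these totals in AST, 1.102 to 1.148 in A-iSC, 0.744 to 0.779 in P56-NPC and 1.147 to 1.218 in P0-NPC, so the values were not scaled to the totals alone. With these sizes the floor of 3 fragments lay at 0.103 to 0.187 FPKM for a 1-kilobase gene, counting error alone being covered. Mitochondrial genes took 16.54 to 17.63% of the fragments of the P56-NPC samples and 2.94 to 7.03% of those of the other 9 samples. Marker lists of other cell types moved with the groups. The summed FPKM of 6 astrocyte markers was 113 to 129 in AST, 1134 to 2384 in A-iSC, 2320 to 2532 in P56-NPC and 223 to 286 in P0-NPC, and that of 6 mural and fibroblast markers was 1867 to 2254, 31.8 to 64.8, 13.2 to 27 and 106 to 110 in the same order. The samples labelled astrocytes thus held the lowest astrocyte marker sum of the 4 groups and the highest mural and fibroblast sum. Single markers did not all follow the sums, since Aqp4 and Gja1 were lower in P0-NPC than in AST and Rgs5, Dcn and Lum were higher in P0-NPC, and Acta2 carried most of the AST mural and fibroblast sum with a mean of 1848 FPKM. For 10 neuron markers the sums were 88.3 to 124 in AST, 49.1 to 67.1 in A-iSC, 233 to 283 in P56-NPC and 787 to 959 in P0-NPC. Stmn2, with means of 53.8 FPKM in AST and 7.16 in A-iSC, carried the lower sum of A-iSC, where Gad1 was called higher than in AST. Tubb3 and Stmn2 carried most of the P0-NPC sum. Of the 10, 5 were higher in P56-NPC than in P0-NPC and 4 lower, against 39.7% and 39% of all tested genes. For 5 oligodendrocyte markers they were 17.6 to 19.4, 54.3 to 75.8, 8430 to 9633 and 15.2 to 18.2 in that order, and for 5 microglia markers 20.1 to 23.8, 193 to 246, 231 to 240 and 23 to 31.2. The part of these cells in the results below was not tested, and in such mixed samples fewer cells of a type and less RNA per cell cannot be told apart.

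Voltage-gated sodium channels carry the inward current that starts and propagates action potentials in neurons and muscle. Each is built around one large alpha subunit that forms the pore and senses voltage, with small beta subunits that modulate gating and act in cell adhesion. Calcium channels of the same superfamily have a pore-forming alpha1 subunit that names the current type, an extracellular alpha2delta subunit and a cytoplasmic beta subunit that bring it to the membrane. The gamma genes include a subunit of the skeletal muscle channel and the transmembrane AMPA receptor regulatory proteins (TARPs), which travel with glutamate receptors. Astrocytes and neural progenitors transcribe some of these genes without firing action potentials.

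Promoter sequences are given for 4 members, the first pair because they were higher in A-iSC than in AST. Scn2b was taken because its change in A-iSC over P56-NPC was the largest on the log2(FPKM + 1) scale, at -3.72, though not as a ratio. Cacna2d1 was taken because it was lower in A-iSC than in AST. Each sequence runs from 250 bases before to 50 bases after an annotated transcription start and was taken from RefSeq on GRCm38.p6. Capitals mark CpG dinucleotides, the sites of DNA methylation in mammals. Cacng5 had annotated starts with windows at chr11:107915006-107915305 and chr11:107911313-107911612 on the minus strand, with 17 and 5 CpG. The Scn8a windows lay at chr15:100870395-100870694 and chr15:100936021-100936320 on the plus strand with 38 and 12 CpG. The window of Scn2b lay at chr9:45117626-45117925 on the plus strand with 2, and that of Cacna2d1 at chr5:15934441-15934740 on the plus strand with 42.
Cacng5, upstream start: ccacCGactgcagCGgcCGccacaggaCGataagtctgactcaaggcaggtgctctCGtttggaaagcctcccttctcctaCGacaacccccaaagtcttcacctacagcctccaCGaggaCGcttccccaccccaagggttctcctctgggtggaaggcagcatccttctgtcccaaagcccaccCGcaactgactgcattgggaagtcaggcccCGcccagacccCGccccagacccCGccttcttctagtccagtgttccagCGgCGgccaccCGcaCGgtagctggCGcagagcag
Cacng5, downstream start: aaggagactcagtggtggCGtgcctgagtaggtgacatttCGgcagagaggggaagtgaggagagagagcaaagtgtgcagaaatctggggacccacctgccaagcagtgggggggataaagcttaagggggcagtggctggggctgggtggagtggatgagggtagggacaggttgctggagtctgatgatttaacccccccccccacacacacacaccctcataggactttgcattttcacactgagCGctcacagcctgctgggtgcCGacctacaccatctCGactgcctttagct
Scn8a, upstream start: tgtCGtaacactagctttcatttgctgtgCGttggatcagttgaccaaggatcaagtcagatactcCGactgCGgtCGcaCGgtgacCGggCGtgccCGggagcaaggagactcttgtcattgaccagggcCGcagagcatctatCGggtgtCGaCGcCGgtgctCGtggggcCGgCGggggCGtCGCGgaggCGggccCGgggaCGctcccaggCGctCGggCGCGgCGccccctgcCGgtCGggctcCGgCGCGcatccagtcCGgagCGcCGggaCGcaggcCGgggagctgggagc
Scn8a, downstream start: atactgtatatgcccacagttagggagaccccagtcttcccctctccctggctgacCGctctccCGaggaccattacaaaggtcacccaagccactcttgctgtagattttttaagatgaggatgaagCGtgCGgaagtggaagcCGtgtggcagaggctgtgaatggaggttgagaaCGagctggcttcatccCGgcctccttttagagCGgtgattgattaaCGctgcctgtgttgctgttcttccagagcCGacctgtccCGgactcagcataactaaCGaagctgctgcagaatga
Scn2b: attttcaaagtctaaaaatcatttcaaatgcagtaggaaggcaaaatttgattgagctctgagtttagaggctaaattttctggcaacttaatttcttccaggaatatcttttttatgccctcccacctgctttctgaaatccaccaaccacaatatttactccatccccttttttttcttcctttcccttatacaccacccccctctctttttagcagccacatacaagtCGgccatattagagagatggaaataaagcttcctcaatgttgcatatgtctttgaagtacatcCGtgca
Cacna2d1: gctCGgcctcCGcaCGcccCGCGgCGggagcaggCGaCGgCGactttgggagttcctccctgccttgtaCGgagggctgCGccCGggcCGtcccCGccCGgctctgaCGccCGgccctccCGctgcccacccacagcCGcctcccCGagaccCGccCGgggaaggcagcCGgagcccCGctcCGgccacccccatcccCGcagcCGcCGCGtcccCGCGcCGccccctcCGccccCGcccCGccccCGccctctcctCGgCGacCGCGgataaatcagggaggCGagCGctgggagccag

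Of the 38 members described, 30 matched the RefSeq table, with 41 promoter windows. Over 32851 windows of the same length the median was 7 CpG, with quartiles of 3 and 20. The upstream Scn8a window and that of Cacna2d1 lay above the upper quartile, the downstream Scn8a window and both of Cacng5 between the quartiles and that of Scn2b below the lower one. The letters GGGCGG, the core of an Sp1 site, searched on both strands, stood in 16 of the 41 windows and in 35.7% of all windows. TATAAA stood in 2 of 41 against 13.6% of all. CACGTG stood in 0 of 41 against 7.15%, and TTCAGCACC, part of the REST element of neuronal genes, in 0 of 41 against 0.371%. These are descriptions of the letters in these windows.

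The levels of all members in all samples are shown in the heat map. The highest mean level was in P0-NPC for 22 members, in P56-NPC for 10, in AST for 2 and in A-iSC for 1, while 3 were listed at 0 in every library. A mean of at least 1 FPKM was reached by 6 members in AST, 9 in A-iSC, 20 in P56-NPC and 24 in P0-NPC. Of the 35 members with a value above 0, 19 were lowest in AST and 12 in A-iSC. For 16 members the A-iSC mean lay above the AST mean and below both NPC means. These orders are of group means without a test, and they take in members at or below the floor of 3 fragments. Scn10a, for example, counts as highest in P56-NPC on 2 fragments.

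**Figure D1:**
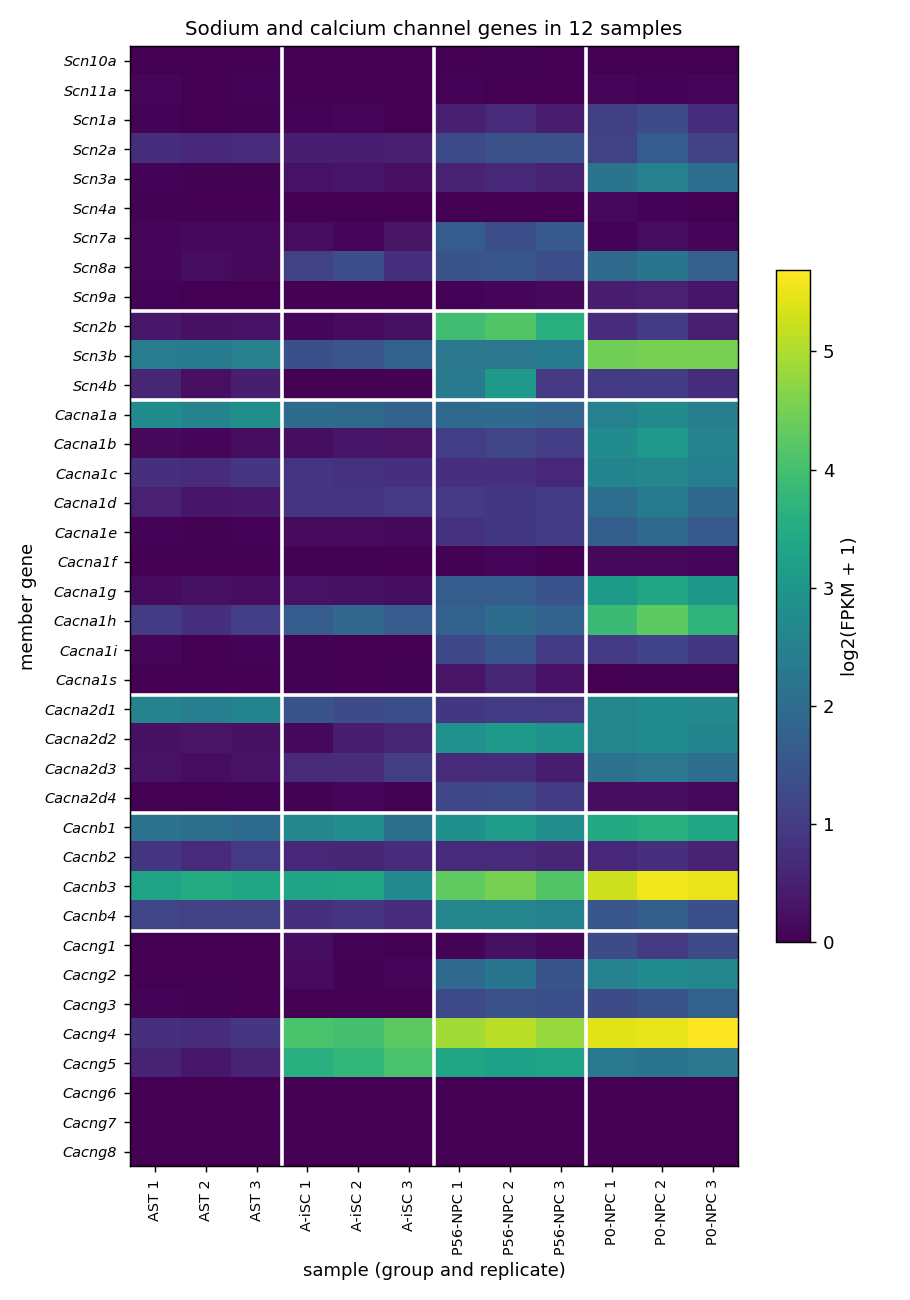
Level of each of 38 member genes (rows, grouped by subunit family) in each of the 12 samples (columns, 3 per group), as log2(FPKM + 1). Cacng4 is dark in AST and bright in the other 3 groups.

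The 3 members at 0, Cacng6, Cacng7 and Cacng8, lie side by side on chromosome 7 of GRCm38, from 3332955 to 3435667. Cacng7 and Cacng8 encode TARPs, and Cacng6 a gamma subunit of the kind found in skeletal muscle. Their neighbours Myadm and Tarm1 were also at or near 0, with highest values of 0.055 and 0.12 FPKM, while Ndufa3, a subunit of mitochondrial complex I that lies just beyond this stretch, reached 35 to 145 FPKM. The zeros are therefore given as listed and not as absence of the transcripts. Another 7 members stayed below a mean of 1 FPKM in every group and so outside the tests on FPKM. Scn10a had 2 fragments over all 12 libraries, and Scn11a had 43. Both encode channels of pain-sensing neurons.

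The first comparison asked which channel genes differed between astrocytes and the cells of their spheres. Of 10 members tested in A-iSC over AST, 4 were higher and 4 lower by limma at an adjusted p under 0.05, against 25.2% of all 14087 tested genes higher and 29.6% lower. The median log2 fold change was 0.07 over the 10 members and -0.06 over all tested genes. The other 28 members did not reach a mean of 1 FPKM in either group. A member that reached it in 1 group alone passed the filter through the group where it was high, so its direction was fixed, and the counts and medians over tested members are a description. This held for 5 of the 10, namely the 4 higher ones and Cacnb4. Of the 5 that reached 1 FPKM in both groups, 3 were lower and 2 were not called. When library size alone set the scale, 60.4% of all calls were higher in place of 46%, and the members split 5 to 3. All log2 fold changes are on the log2(FPKM + 1) scale, which understates changes of low genes, and their adjusted p-values come from limma with Benjamini-Hochberg adjustment over all tested genes.

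Cacng4, a TARP, measured 0.717, 0.662 and 0.859 FPKM in AST and 16, 15.1 and 18.1 FPKM in A-iSC. No AST sample came near the A-iSC range, and the means differed 21.9-fold. The log2 fold change was 3.31 ± 0.11 (SE), with an adjusted p of 3.54e-06. Cacng5, a type II TARP, measured 0.482, 0.296 and 0.463 FPKM in AST and 10.8, 12.7 and 15.6 FPKM in A-iSC. Again the groups did not overlap, and A-iSC was the highest of all 4 groups for this gene. Its means differed 31.5-fold, and its log2 fold change was 3.30 ± 0.15 with an adjusted p of 6.55e-06. These genes neighbour each other on chromosome 11, Cacng4 at 107732357 to 107794557 and Cacng5 at 107874605 to 107915055 on the minus strand of GRCm38. Cacng1, the skeletal muscle gamma subunit, lies next to them at 107703218 to 107716522 and had 0 fragments in all AST libraries and 4, 1 and 0 in A-iSC.

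Scn8a encodes Nav1.6, the sodium channel of axon initial segments and nodes of Ranvier. It measured 0.0757, 0.138 and 0.113 FPKM in AST and 1.15, 1.53 and 0.696 FPKM in A-iSC, with 20 to 44 and 294 to 572 fragments. Each A-iSC value exceeded each AST value. The log2 fold change of 0.92 ± 0.16 had an adjusted p of 0.00255. Cacna1h encodes the T-type channel Cav3.2, which opens at voltages near rest. It measured 1.01, 0.717 and 1.06 FPKM in AST and 2.15, 2.68 and 2.09 FPKM in A-iSC, without overlap. The change was 0.78 ± 0.13 with an adjusted p of 0.00197.

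Cacna2d1, an alpha2delta subunit that binds gabapentin, measured 4.83, 4.4 and 4.91 FPKM in AST and 1.79, 1.52 and 1.58 FPKM in A-iSC. Its groups did not overlap, and it fell by 1.12 ± 0.10 on the log2 scale, with an adjusted p of 0.000116.

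Cacna1a, the pore of the P/Q-type channel that triggers transmitter release at many synapses, measured 5.73, 4.83 and 6.18 FPKM in AST and 3.06, 2.88 and 2.52 FPKM in A-iSC. AST was the highest of the 4 groups for this gene. It fell by 0.78 ± 0.12 on the log2 scale in A-iSC, with an adjusted p of 0.00147. Scn3b, a sodium channel beta gene, was lower as well. It measured 4.34, 4.05 and 4.61 FPKM in AST and 1.62, 1.83 and 2.42 FPKM in A-iSC, with a log2 fold change of -0.86 ± 0.13 and an adjusted p of 0.0013. In neither Cacna1a nor Scn3b did the groups overlap.

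Among the 10 members tested on FPKM, the calcium channel beta genes differed least. Cacnb4 measured 1.27, 1.16 and 1.16 FPKM in AST and 0.72, 0.826 and 0.653 FPKM in A-iSC, and its log2 fold change of -0.34 ± 0.11 had an adjusted p of 0.0294. This call was lost under library-size scaling, with no filter, with the replicate block and when any sample but A-iSC replicate 3 was left out, with adjusted p-values from 0.05 to 0.108. Cacnb3, the most abundant beta gene, measured 8.73, 10.4 and 9.47 FPKM in AST and 9.03, 9.16 and 5.37 FPKM in A-iSC. Its groups overlapped, with an adjusted p of 0.262. Cacnb1 measured 3.49, 3.26 and 3 FPKM in AST and 5.1, 5.86 and 3.3 FPKM in A-iSC, with overlap and an adjusted p of 0.0898. It was called higher under library-size scaling, with all 4 groups in the model, with the replicate block and without A-iSC replicate 3, with adjusted p-values from 0.00286 to 0.0485. A-iSC replicate 3 was the lowest of its group for both genes.

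**Figure D2:**
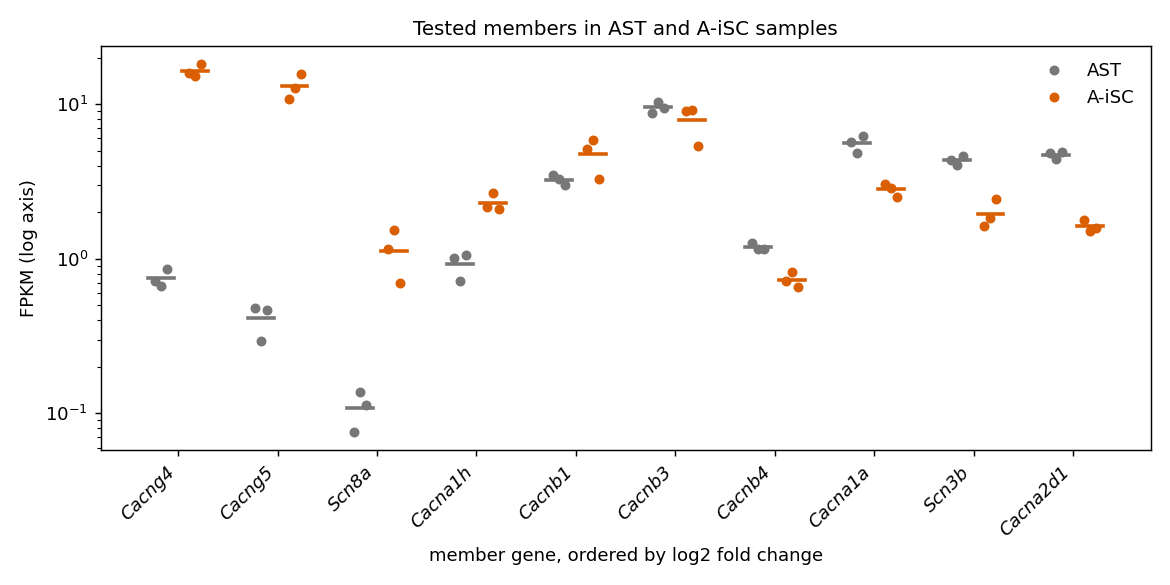
FPKM (log axis) of 10 members tested in A-iSC over AST, with points for the 3 samples of each group and bars for the group means. Cacng4, Cacng5, Scn8a and Cacna1h lie higher in A-iSC without overlap, Cacnb1 and Cacnb3 overlap, and the other 4 lie lower in A-iSC.

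Members below the filter were read from the fragments recovered from the FPKM, tested with limma-voom. This test took in 23 members and called 15, with 9 higher and 6 lower in A-iSC, against 26.9% and 27.2% of all 16827 genes in that test. It took genes with at least 10 fragments in 3 samples, so a member with fewer than 10 in samples of 1 group could pass through the other alone. This held for 2 of the 9 higher, Scn3a and Cacna1e, and for 1 of the lower, Scn4b. Scn3a, the Nav1.3 gene of the developing brain, had 8, 6 and 4 fragments in AST and 56, 75 and 57 in A-iSC, and an adjusted p of 0.000418. Another 4 genes below the filter, all of calcium channels, were called higher by limma-voom, namely Cacna1b (N-type, adjusted p 0.0312), Cacna1d (L-type, 0.000625), Cacna1e (R-type, 0.00265) and Cacna2d3 (0.00115). The A-iSC means of these 4 genes were 0.212, 0.871, 0.115 and 0.763 FPKM. Scn2a, the Nav1.2 gene, was called lower by limma-voom, with 0.679, 0.573 and 0.596 FPKM in AST, 0.386, 0.393 and 0.404 FPKM in A-iSC and an adjusted p of 0.0156.

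Scn4b, whose product resembles the beta2 subunit, had 44, 17 and 37 fragments in the AST libraries and 0 in each A-iSC library. With a floor of 3 fragments per A-iSC library, AST was at least 14.1-fold higher. Cacng3, a TARP, was also at 0 in each A-iSC library, but AST held 2, 1 and 0 fragments, so no fold is given. For Cacna1c, the L-type channel of heart, vessels and brain, AST held 258 to 336 fragments and A-iSC 342 to 407, with means of 0.746 and 0.762 FPKM. Its adjusted p by limma-voom was 0.861.

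The summed FPKM of the calcium channel and gamma families shows how these changes altered their make-up. The gamma genes summed to 1.19 ± 0.182 FPKM (SD, n = 3) in AST and to 29.5 ± 3.66 in A-iSC, and Cacng4 and Cacng5 together gave nearly all of it in both groups. The calcium channel alpha1 sum was 7.93 ± 1.03 in AST and 7.33 ± 0.496 in A-iSC. Within it the share of Cacna1a was 70.4% in AST and 38.5% in A-iSC, and that of Cacna1h was 11.7% and 31.5%. The alpha2delta sum was 5.12 ± 0.297 in AST and 2.77 ± 0.346 in A-iSC. No test was made of these sums.

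**Figure D3:**
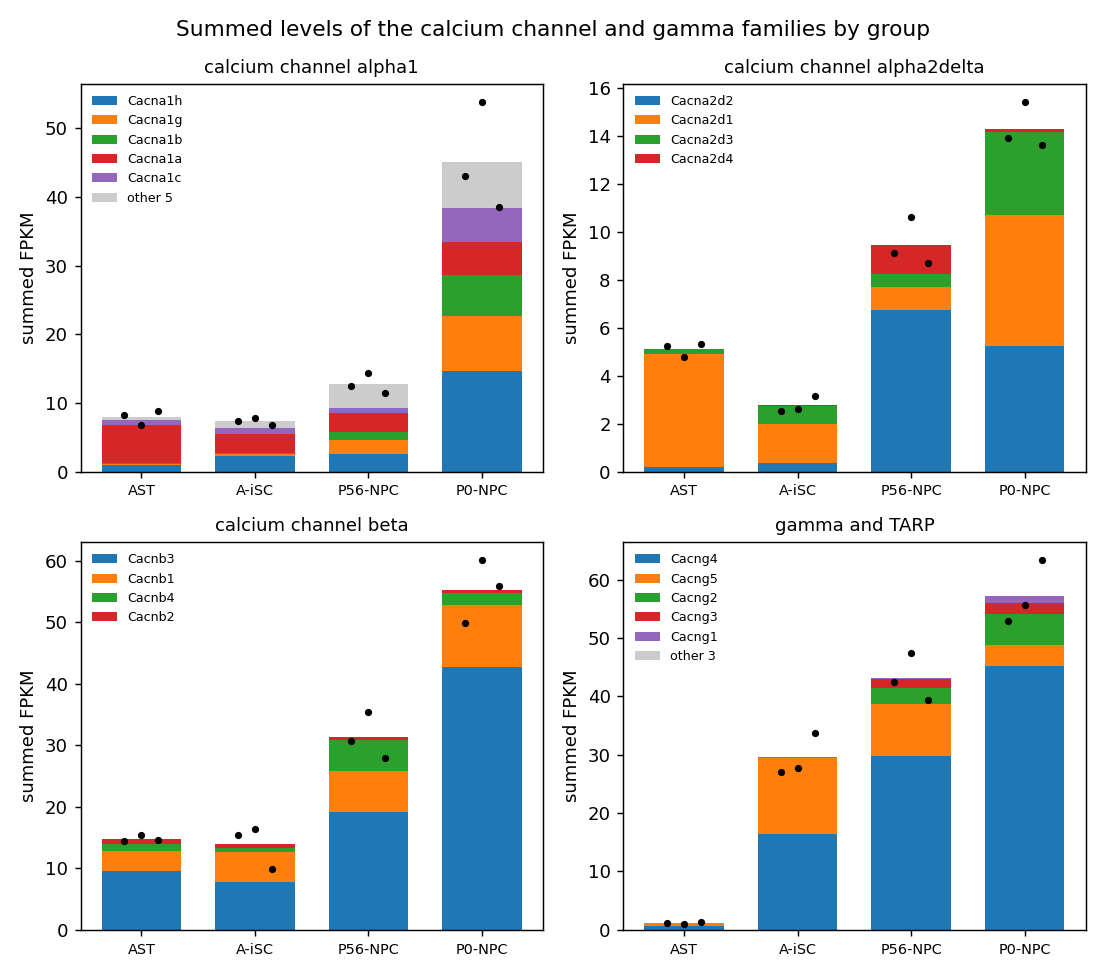
Summed FPKM of the calcium channel alpha1, alpha2delta and beta families and of the gamma family in the 4 groups, as stacked means of the named members and of the others together, with black points for the sums of single samples. The gamma genes sum to 1.19 FPKM in AST and 29.5 in A-iSC, and the alpha1 genes stand at 45.1 in P0-NPC against 12.8 or less in the other groups.

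Both NPC groups, the positive controls of the study, were compared with AST. These comparisons share the AST samples with that of A-iSC, so the values are set side by side only. In P56-NPC over AST, 21 members were tested, of which 18 were higher and 2 lower, against 39.1% and 39.8% of 15146 genes. The median log2 fold change was 1.30 over the members and -0.03 over all tested genes. In P0-NPC over AST, 24 were tested, of which 22 were higher and 2 were not called, against 38.1% of 15010 genes higher and 40.9% lower, with medians of 1.74 and -0.07. Of the members higher, 15 of 18 in P56-NPC and 18 of 22 in P0-NPC were below 1 FPKM in AST and passed the filter through the NPC group alone. Of those at 1 FPKM or more in both groups, 3 of 5 were higher in P56-NPC and 4 of 6 in P0-NPC. Under library-size scaling 16 members were higher and 3 lower in P56-NPC, and 24 were higher in P0-NPC, while the share of higher calls among all calls moved from 49.5% to 37.7% and from 48.2% to 59.4%. The neuron marker sums given above were also higher in both NPC groups than in AST.

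Cacng4 was highest in P0-NPC, at 41.3, 43.6 and 50.6 FPKM, and measured 29, 33.5 and 27 FPKM in P56-NPC. The order from P0-NPC through P56-NPC and A-iSC to AST had no overlap between neighbouring groups, and each step passed the test. Over AST the log2 fold changes were 3.31 in A-iSC, 4.14 in P56-NPC and 4.72 in P0-NPC. Cacng5 ran in another order, with 9.2, 8.53 and 8.82 FPKM in P56-NPC and 3.88, 3.53 and 3.74 FPKM in P0-NPC. Its log2 fold changes over AST were 3.30 in A-iSC, 2.80 in P56-NPC and 1.74 in P0-NPC.

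Scn8a over AST changed by 0.92 in A-iSC, 1.30 in P56-NPC and 1.81 in P0-NPC on the log2 scale. Cacna2d1 went apart, since P56-NPC was lower than AST (0.882, 1.01 and 0.929 FPKM, log2 fold change -1.56) while P0-NPC measured 5.13, 5.77 and 5.41 FPKM with a log2 fold change of 0.17 and an adjusted p of 0.09. Under library-size scaling that value was 0.42 with an adjusted p of 0.00332. Cacna1a likewise was lower in P56-NPC, with a log2 fold change of -0.79, and not called in P0-NPC, where the adjusted p was 0.166. In P0-NPC the sign turned under library-size scaling, while upper-quartile scaling and leaving out AST replicate 2 called it lower, with adjusted p-values of 0.0428 and 0.0358.

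**Figure D4:**
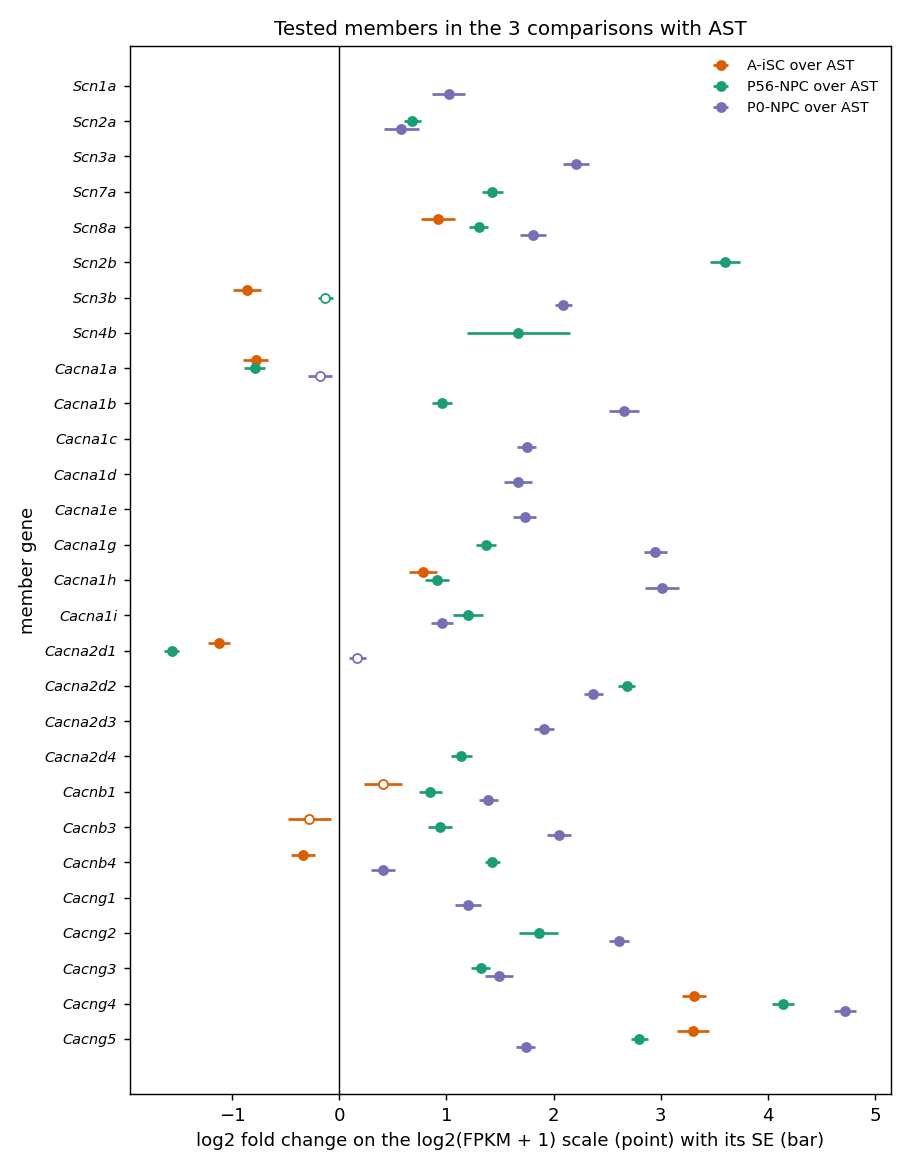
Log2 fold change on the log2(FPKM + 1) scale with its SE for the members tested in A-iSC, P56-NPC and P0-NPC over the same AST samples, with open points where the adjusted p was 0.05 or more. Cacng4, Cacng5, Scn8a and Cacna1h lie right of 0 in all 3 comparisons, while Scn3b is left of 0 for A-iSC and right of 0 for P0-NPC.

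A-iSC was then compared directly with each NPC group. Of 21 members tested against P56-NPC, 2 were higher in A-iSC and 15 lower, against 30.1% and 30.9% of 15044 genes. The median log2 fold change was -1.11 over the members and 0.03 over all tested genes. Under library-size scaling 74.5% of all calls were higher in A-iSC in place of 49.4%, and the members split 3 to 12. Of 24 members tested against P0-NPC, 1 was higher in A-iSC and 23 lower, against 31.5% and 33.6% of 15170 genes, with medians of -1.38 and -0.02. Of the members lower, 12 of 15 and 15 of 23 passed the filter through the NPC group alone, while of those at 1 FPKM or more in both groups 3 of 8 were lower than in P56-NPC and 8 of 9 lower than in P0-NPC. The neuron markers were lower in A-iSC in both comparisons, for 10 of 10 genes each, of which 6 were below 1 FPKM in A-iSC and passed the filter through the NPC group alone, and the oligodendrocyte sum was 54.3 to 75.8 FPKM in A-iSC against 8430 to 9633 in P56-NPC.

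The members higher in A-iSC than in P56-NPC were Cacng5 and Cacna2d1. For Cacng5 the log2 fold change was 0.50 ± 0.14 with an adjusted p of 0.017, and without P56-NPC replicate 2 or 3 the adjusted p was 0.0624 or 0.0537. Cacna2d1 was higher by 0.44 ± 0.10 with an adjusted p of 0.00671. With a P56-NPC mean of 0.941 FPKM it passed the filter through A-iSC alone, so its direction was fixed. Against P0-NPC the member higher in A-iSC was Cacng5, by 1.56 ± 0.14, with an adjusted p of 4.51e-05.

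Some members lower in A-iSC than in an NPC group held few fragments in it. Cacng2, the gene of stargazin, the TARP that carries AMPA receptors to synapses, had 14, 3 and 7 fragments in the A-iSC libraries. It measured 2.82, 3.65 and 1.78 FPKM in P56-NPC and 4.74, 5.69 and 5.09 FPKM in P0-NPC, and its log2 fold changes in A-iSC were -1.79 and -2.53. For Cacng3, at 0 in each A-iSC library, P56-NPC was at least 33.5-fold and P0-NPC at least 40.5-fold higher, with means of 1.56 and 1.88 FPKM. Scn3a measured 0.218, 0.248 and 0.167 FPKM in A-iSC and 3.57, 4.58 and 3.15 FPKM in P0-NPC, a log2 fold change of -1.97 ± 0.14 with an adjusted p of 1.10e-05. Cacna1g, a T-type gene, was 41.9-fold lower in A-iSC than in P0-NPC, and Cacna1b was 28.4-fold lower.

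Some members did not pass the test between A-iSC and P56-NPC. Cacna1h measured 2.39, 3.05 and 2.44 FPKM in P56-NPC, with an adjusted p of 0.373, and its P0-NPC values of 13.7, 18.4 and 12 FPKM stood above both. Cacna1a measured 2.87, 2.95 and 2.6 FPKM in P56-NPC, with a log2 fold change of 0.00 ± 0.10 and an adjusted p of 0.979. That value depended on the scale, since library-size scaling gave 0.41 with an adjusted p of 0.0075. Scn8a and Cacnb1 had adjusted p-values of 0.077 and 0.0833, although their groups did not overlap. Both were called lower in A-iSC with all 4 groups in the model (0.0387 and 0.027) and without A-iSC replicate 2 (0.0321 and 0.0465), Scn8a also by limma-voom (0.0482) and Cacnb1 with the replicate block (0.0421), while library-size scaling turned the sign of Cacnb1.

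The NPC groups were compared with each other last. Of 28 members tested in P56-NPC over P0-NPC, 7 were higher and 18 lower, against 39.7% and 39% of 15394 genes. The median log2 fold change was -0.60 over the members and 0.01 over all tested genes. Of the 16 members at 1 FPKM or more in both groups, 3 were higher and 10 lower. Under library-size scaling the members split 4 to 20, and 26.7% of all calls were higher in place of 50.4%.

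Scn7a encodes Nax, a sodium-sensing relative of the voltage-gated channels known from glia, and measured 2.15, 1.59 and 1.99 FPKM in P56-NPC and 0.0417, 0.14 and 0.0544 FPKM in P0-NPC. Its groups did not overlap, and the log2 fold change was 1.43 ± 0.11 with an adjusted p of 1.28e-05. Scn3a was lower in P56-NPC, at 0.485, 0.583 and 0.477 FPKM, with a log2 fold change of -1.64 ± 0.12. Scn2a measured 1.44, 1.67 and 1.65 FPKM in P56-NPC and 1.13, 2.13 and 1.13 FPKM in P0-NPC, with overlap and an adjusted p of 0.595. Without P0-NPC replicate 2 its log2 fold change was 0.28 with an adjusted p of 0.0306. Scn1a, the Nav1.1 gene, measured 0.419, 0.626 and 0.365 FPKM in P56-NPC and 1.1, 1.52 and 0.674 FPKM in P0-NPC. Its log2 fold change was -0.50 ± 0.16 with an adjusted p of 0.0236. The call was lost with no filter and without P56-NPC replicate 1 or 3 or P0-NPC replicate 1, with adjusted p-values from 0.0545 to 0.0643.

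Among the sodium channel beta genes, Scn2b, whose product binds the alpha subunit by a disulfide bond, measured 14.5, 16.6 and 11.1 FPKM in P56-NPC and 0.657, 1.02 and 0.413 FPKM in P0-NPC, with a log2 fold change of 3.15 ± 0.17 and an adjusted p of 1.87e-06. Scn3b ran the other way, with 3.76, 3.78 and 4.04 FPKM in P56-NPC and 21, 22.1 and 22 FPKM in P0-NPC, a log2 fold change of -2.23 ± 0.06 and an adjusted p of 8.05e-08. In neither Scn2b nor Scn3b did the groups overlap.

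Scn4b was uneven within P56-NPC, at 3.98, 7.35 and 0.938 FPKM, and measured 0.956, 1.03 and 0.67 FPKM in P0-NPC. The groups overlapped, and the log2 fold change of 1.20 ± 0.46 had an adjusted p of 0.0443. Without P56-NPC replicate 2 it was 0.73, and the call was lost in every leave-out but that of P56-NPC replicate 3, under library-size scaling and with no filter, with adjusted p-values from 0.0823 to 0.119. The neuron marker sums of the 3 P56-NPC samples were 258, 283 and 233 FPKM.

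**Figure D5:**
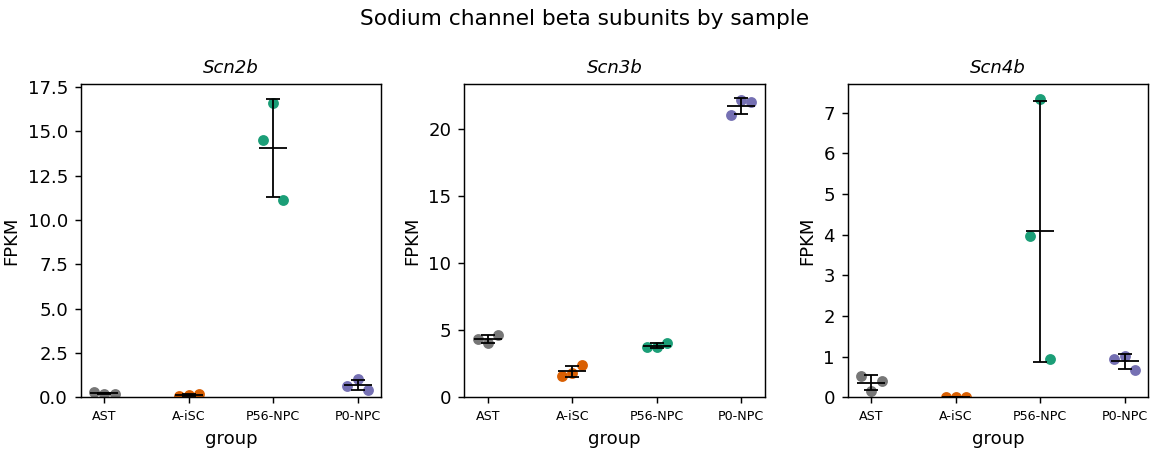
FPKM of the sodium channel beta genes Scn2b, Scn3b and Scn4b in each sample (points) with the mean and SD of the 3 samples of each group (bars). Scn2b stands out in P56-NPC at 14.1 FPKM, Scn3b in P0-NPC at 21.7 FPKM, and Scn4b is spread from 0.938 to 7.35 FPKM within P56-NPC and is at 0 in A-iSC.

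Of 8 alpha1 genes tested between the NPC groups, 7 were lower in P56-NPC, against 39% of all tested genes, and 1 was not called. Cacna1c, Cacna1d and Cacna1e passed the filter through P0-NPC alone, and of the 5 at 1 FPKM or more in both groups 4 were lower. Cacna1h led in P0-NPC with 32.6% of an alpha1 sum of 45.1 ± 7.85 FPKM, while the P56-NPC sum was 12.8 ± 1.46. Cacna1g measured 2.14, 2.13 and 1.69 FPKM in P56-NPC and 7.51, 9.17 and 7.12 FPKM in P0-NPC, without overlap, and the log2 fold change was -1.58 ± 0.11 with an adjusted p of 6.40e-06. Cacna1c measured 0.718, 0.729 and 0.562 FPKM in P56-NPC and 4.91, 5.22 and 4.49 FPKM in P0-NPC, with a log2 fold change of -1.81 ± 0.09 and an adjusted p of 9.93e-07. The exception was Cacna1i, another T-type gene, with 1.36, 1.88 and 1.01 FPKM in P56-NPC and 0.949, 1.21 and 0.902 FPKM in P0-NPC. Its groups overlapped, with an adjusted p of 0.156, and without P56-NPC replicate 3 its log2 fold change was 0.37 with an adjusted p of 0.0368.

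Among the alpha2delta genes, Cacna2d1 and Cacna2d3 were lower in P56-NPC than in P0-NPC, with log2 fold changes of -1.73 and -1.54. Cacna2d4 was higher, at 1.33, 1.4 and 0.98 FPKM against 0.157, 0.138 and 0.0958 FPKM, with a log2 fold change of 0.98 ± 0.11. Cacna2d2 was called higher in P56-NPC by 0.31 ± 0.09 with an adjusted p of 0.0112, but library-size scaling turned it to -0.23 with an adjusted p of 0.0334. Of the calcium channel beta genes, Cacnb4 was higher in P56-NPC, at 5.06, 5.04 and 4.63 FPKM against 1.86, 2.28 and 1.62 FPKM in P0-NPC. Cacnb3 was lower, at 18.8, 22 and 16.8 FPKM against 37.3, 46.2 and 44.6 FPKM, and Cacnb1 was lower too, with a log2 fold change of -0.54. Cacng1 measured 1.5, 0.962 and 1.48 FPKM in P0-NPC, from 35 to 51 fragments, and 0.0461, 0.2 and 0.0972 FPKM in P56-NPC. Against the 3 fragments per library that the zeros of AST allow, P0-NPC was at least 10.1-fold higher than AST for this gene.

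The members at low level were spread over few fragments. Cacna1s, the pore of the skeletal muscle L-type channel, held 26, 53 and 22 fragments in P56-NPC and 0 to 5 in each of the other libraries, and was below the filter. Cacna1f, the L-type gene of the retina, was at 0 in AST and held 13 to 23 fragments in P0-NPC, at least 4.19-fold above the AST floor. Scn9a, the Nav1.7 gene of sensory neurons, held 91 to 159 fragments in P0-NPC and 0 to 22 elsewhere, and Scn4a, the skeletal muscle gene, held 13, 8 and 3 in P0-NPC and at most 3 elsewhere. Cacnb2, a beta gene prominent in heart muscle, was highest in AST at 0.87, 0.637 and 0.969 FPKM and stayed under the filter in every group, with means of 0.571 to 0.579 FPKM in the other 3.

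Some members share exon bases with a gene on the opposite strand, and the strand setting of the counting is not given in the sources used here. The exons of Cacna1d and of Chdh, a choline dehydrogenase with up to 4.8 FPKM, share 589 of 12621 exon bases. The overlap of Cacna1a with the lncRNA Gm16183 was 435 bases and that of Cacnb1 with Gm11629 was 80 bases, with at most 1.14 and 2.33 FPKM for the overlapping genes. The values of Cacna1d, Cacna1a and Cacnb1 may therefore hold fragments of these genes. The same holds for other members, among them Cacnb4, which shares 1433 of 8963 exon bases with A430018G15Rik (at most 0.235 FPKM). Cacna1s shares 1309 of 6550 with Gm37759 (at most 0.0887 FPKM), and Cacng2 shares 323 of 5510 with A730060N03Rik (at most 0.42 FPKM). Cacng4, Cacng5 and Scn8a share no exon base with another gene of the GENCODE annotation.

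Genes whose products act with these channels were read from 5 lists. As for the members, a listed gene at 1 FPKM or more in 1 group alone had its direction fixed by the filter, so the counts are a description. Of 11 sodium channel partners, 9 were tested in A-iSC over AST, of which 4 were higher and 5 lower, against 25.2% and 29.6% of all tested genes, with a median log2 fold change of -0.30. Fgf11 and Fgf13, which encode intracellular growth factor homologues that bind sodium channels, moved apart. Fgf11 measured 0.118, 0.34 and 0.301 FPKM in AST and 3.6, 4.7 and 2.98 FPKM in A-iSC, a log2 fold change of 1.91 with an adjusted p of 7.05e-05. Fgf13 measured 6.44, 4.54 and 5.59 FPKM in AST and 1.42, 1.3 and 1.67 FPKM in A-iSC, a change of -1.40 with an adjusted p of 0.000163. Ank2, a membrane scaffold, and the adhesion molecules Cntn1 and Nfasc were higher in A-iSC by 1.65, 1.48 and 1.01. In P56-NPC and P0-NPC 9 of the 11 were higher than in AST, against 39.1% and 38.1% of all tested genes, and 10 of 11 were lower in A-iSC than in P56-NPC, against 30.9%. Of the 7 at 1 FPKM or more in both groups, 5 were higher in P56-NPC and 5 in P0-NPC than in AST, and 6 were lower in A-iSC than in P56-NPC.

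Of 17 calcium channel partners, 11 were tested in A-iSC over AST, of which 4 were higher and 5 lower, with a median of -0.03, beside the same 25.2% and 29.6% of all tested genes. Gem and Rrad, small GTPases that inhibit calcium channels through the beta subunit, were both higher. Gem measured 16.9, 19.7 and 17.6 FPKM in AST and 34, 34.8 and 44.2 FPKM in A-iSC, with a log2 fold change of 1.01 and an adjusted p of 0.000766. Rrad changed by 1.03, and Stac2, an adaptor of L-type channels, by 1.17. Calm2 and Calm3, which encode calmodulin, were lower, with changes of -1.0 and -0.83. Calm2 measured 360, 366 and 347 FPKM in AST and 174, 181 and 180 FPKM in A-iSC. Gem was lower in both NPC groups than in AST.

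Of 21 genes of calcium stores and extrusion, 13 were tested, of which 2 were higher and 6 lower in A-iSC, against 25.2% and 29.6% of all tested genes, with a median of -0.35. Slc8a2, a sodium-calcium exchanger, measured 0.193, 0.328 and 0.317 FPKM in AST and 3.06, 3.19 and 3.76 FPKM in A-iSC, and changed by 1.76 with an adjusted p of 2.57e-05. The plasma membrane calcium pump gene Atp2b4 changed by -1.49, and the store-operated channel genes Orai2 and Orai1 by -1.35 and -0.60. Atp2a2, the calcium pump of the endoplasmic reticulum and the most abundant gene of this list, was not called, with an adjusted p of 0.163, but was lower without A-iSC replicate 3, with an adjusted p of 0.0215. Of 4 genes of the sodium leak channel complex, 1 was tested in A-iSC over AST and 0 were called. This was Nalcn, the pore of that channel, which measured 1.69, 1.01 and 1.47 FPKM in AST and 0.762, 0.789 and 1.53 FPKM in A-iSC.

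The AMPA receptor genes and their other auxiliary genes bear on the TARPs. Of 10 genes, 8 were tested in A-iSC over AST, of which 4 were higher and 1 lower, with a median of 0.33 and 25.2% and 29.6% of all tested genes called in each direction. Cnih2, a cornichon protein that binds the same receptors as TARPs, measured 1.74, 2.38 and 1.57 FPKM in AST and 12.4, 15.1 and 11.7 FPKM in A-iSC. Its log2 fold change was 2.28 with an adjusted p of 2.36e-05, and it reached 323 to 332 FPKM in P56-NPC. The receptor subunit genes Gria2 and Gria1 were higher in A-iSC by 1.06 and 0.74, and Gria3 was lower, with a log2 fold change of -1.71. Gria2 measured 3.88, 3.61 and 2.48 FPKM in A-iSC against 16.4 ± 1.53 FPKM (SD, n = 3) for Cacng4, both per kilobase of gene.

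Over the 12 samples the genes most like the 3 members of largest change in A-iSC over AST on the log2(FPKM + 1) scale were listed by Pearson correlation of log2(FPKM + 1) among 13628 genes, as a description in which 4 group means carry most of the spread. For Cacng4 these were Nnat, 6330403K07Rik and Slc8a2, each with r = 0.992. For Cacng5 they were Rhbdl3, Bmf and Nim1k, with r of 0.988, 0.986 and 0.982. For Cacna2d1 they were Maged2, Enc1 and Lama4, with r of 0.994, 0.992 and 0.991. The ratio of the means was larger for Scn8a, at 10.3, than for Cacna2d1, at 2.89.

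The other marker lists are given by their summed FPKM in AST, A-iSC, P56-NPC and P0-NPC in that order. For 7 neuroblast markers the sums were 15.8 in each AST sample, 19.6 to 23.1, 31.6 to 43.8 and 333 to 410. For 5 oligodendrocyte precursor markers they were 106 to 128, 145 to 170, 516 to 522 and 53.7 to 85.8, and for 4 ependymal markers 49.1 to 62.3, 59.6 to 71.7, 225 to 298 and 69.2 to 88.6. For 4 endothelial markers they were 2.55 to 3.84, 1.46 to 2.32, 2.78 to 3.6 and 63.9 to 65. The summed level of 5 skeletal and cardiac muscle markers was 0.312 to 0.352 FPKM in AST and 0.0158 to 0.245 in A-iSC, 0.226 to 0.341 in P56-NPC and 0.216 to 1.58 in P0-NPC, with no marker at a level that was tested. The neuroblast and endothelial sums were highest in P0-NPC, the group with the highest level of most members. Whether these cells account for any member's level was not tested.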

How the data were processed

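Libraries of total RNA (NEBNext Ultra kit) were sequenced from both ends on an Illumina HiSeq platform. The authors deposited 1 table of 55862 genes by 12 samples. Its unit was read from the values as FPKM, since each deposited FPKM times its gene length and a library size found from the low values of its column gave, at low counts, a whole number of fragments within 0.05, and these were recovered. Those sizes were 0.744 to 1.218 times the fragment totals. The submitters' processing notes name Bowtie 0.12.2 and mm8, while gene positions matched GRCm38. Columns were matched to samples by name.

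Groups were compared 2 at a time in 6 comparisons with limma 3.58.1 in R 4.3.3, on log2(FPKM + 1), over genes with a mean of at least 1 FPKM in either group, with Benjamini-Hochberg adjustment over all of them and a threshold of 0.05. On simulated data for A-iSC over AST, 200 of 200 changed genes among 11949 were called. Another 23 calls were of unchanged genes, 10.3% of the calls, which is above the threshold of 0.05. In the samples themselves 3550 of 14087 genes were called higher and 4165 lower, a far larger part than in the simulated data. How often a change of a member would be called was not tested. Alternatives were library-size and upper-quartile scaling, no filter, a pseudocount of 0.1, all 4 groups in the model, a replicate block, limma-voom on recovered fragments (at least 10 in 3 samples), a log2 fold change beyond 1, and leaving out each sample. DESeq2, named by the authors, was not run. The members and the gene lists were chosen with earlier results of these data known. From the partner lists, up to 3 genes with the largest change in A-iSC over AST and up to 3 with the highest level could be named. Some genes, a few members among them, are not reported here. No sample or column was left out.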

Additional observations from a re-analysis of the deposited data

How the results depend on the processing

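The filter at a mean of 1 FPKM kept 28 of 38 members out of A-iSC over AST, 13 of which were tested by limma-voom. Counts of called members, both directions together, stayed within 1.5 times of those given under all alternatives except these. In A-iSC over AST, limma-voom called 15 members in place of 8, of 23 tested. A log2 fold change beyond 1 left 3 members in A-iSC over AST, 11 in A-iSC over P56-NPC and 16 in P56-NPC over P0-NPC. With no filter 8 members were higher in A-iSC over AST in place of 4, of 34 tested. For this setting and for a log2 fold change beyond 1, the shares of all tested genes are not given. The counts under both are therefore a description. Without P56-NPC replicate 2 or 3 only 1 member was higher in A-iSC over P56-NPC in place of 2. Leaving out 1 sample gave 6 to 9 members in A-iSC over AST. Library-size scaling moved the median log2 fold change of all genes to 0.13, -0.34, 0.21, 0.49, -0.09 and -0.53 in the 6 comparisons in the order of the text, from -0.06, -0.03, -0.07, 0.03, -0.02 and 0.01. It turned the sign of 6 log2 fold changes: Cacna1a in P0-NPC over AST to 0.06, Cacnb1 and Cacna1h in A-iSC over P56-NPC to 0.04 and 0.26, and Cacna2d2, Cacna1i and Scn2a in P56-NPC over P0-NPC to -0.23, -0.10 and -0.28. Of these only Cacna2d2 had been called. Library-size scaling also took the call of Scn3b in A-iSC over P56-NPC, and Scn4b in P56-NPC over AST lost its call without P56-NPC replicate 1 (adjusted p of 0.0519). Cacna1a in A-iSC over P56-NPC ran from -0.04 to 0.06 over the leave-outs. The causes were not tested beyond the settings themselves. The deviations of same-numbered A-iSC and AST replicates from their group means had r of -0.41, 0.35 and 0.45. Deviations from a mean of 3 samples sum to 0, so these mixed signs cannot show whether the numbers are pairs. The main tests did not take them as pairs. The replicate block gave 8 called members in A-iSC over AST, taking the call from Cacnb4 (adjusted p of 0.0721) and calling Cacnb1 higher (0.0485).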
